A study of Mus musculus with 4 samples.

Results

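The Hox cluster genes encode homeodomain transcription factors that give cells their position along the head-to-tail axis. The 39 mouse genes named Hoxa, Hoxb, Hoxc or Hoxd with a paralog number were taken through the RefSeq accession of each array probe, and all 39 had a probe among the 22911 genes with a symbol. Of these 39, 32 genes had 1 probe and 7 genes had 2 probes, 46 probes in all, and each gene was followed on its brightest probe.

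Islets of male C57BL/6 littermates aged 60 weeks were dispersed to single cells and cultured for 24 h with 10 μM MOTS-c, a peptide encoded in the mitochondrial genome, or with a scrambled peptide of the same concentration as control. Total RNA of 2 scrambled samples (replicates 1 and 2) and 2 MOTS-c samples (replicates 2 and 3) was hybridized to 4 one-color mouse expression arrays. The cells came from 4 littermates, but the labels do not tie an array to an animal, so that p-values measure the spread between these arrays, which may be technical. All 4 arrays lay on 1 slide. Untreated cells and younger mice were not among these arrays.

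Hox genes lie in 4 clusters, and a gene's place in its cluster (paralog group 1 to 13) follows where along the embryonic axis it is switched on, from anterior to posterior. The pancreas arises from the foregut and relies on homeobox genes outside the clusters, such as Pdx1, for its identity. Polycomb proteins keep Hox genes silent outside their domain, Trithorax and MLL proteins keep them active within it, retinoic acid opens the anterior end of the clusters in the embryo, and PBX and MEIS proteins bind DNA together with HOX proteins.

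Spots well above background, a flag of the scanner software for a signal that exceeds the local background by a set margin, made up 61.6% to 65.0% of gene spots per array. Insulin, glucagon and somatostatin were bright on all 4 arrays, and 6 of 8 beta cell markers were well above background on all 4. Ucn3, a marker of mature beta cells, was detected on 0 arrays, and Slc2a2, the beta cell glucose transporter, on 3. Several defining markers of the other islet cells were detected on 0 arrays: the leukocyte gene Ptprc, the macrophage gene Adgre1, the endothelial genes Cdh5, Kdr, Emcn, Tie1 and Tek, and the fibroblast and pericyte genes Col1a1, Col3a1, Lum, Dcn, Postn, Rgs5 and Pdgfrb. Other markers of these cells were detected on all 4 arrays, 5 of 8 immune, 3 of 8 endothelial and 4 of 11 mesenchymal genes, Itgam, Csf1r, Plvap and Acta2 among them. The labels name male mice, yet for Uty, Kdm5d, Ddx3y and Eif2s3y, which lie on the Y chromosome, 0 of 28 readings (7 probes on 4 arrays) were well above background. Xist, which is transcribed from the inactive X chromosome, was well above background on 4 of 4 arrays, with a spot signal 23.7 to 33.5 times the local background. This held for both treatments.

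The promoters of 5 transcripts of the Hoxa cluster are printed as examples from genes with different detection. Each is a 300-base window from 250 bases before to 50 after the start, read 5′ to 3′ on the minus strand of chromosome 6, from RefSeq on GRCm38.p6. Capitals mark CpG dinucleotides, which are dense in the promoters that Polycomb proteins commonly occupy. Hoxa6 (chr6:52208623-52208922) was detected on 0 arrays, the noncoding RNA Mira (chr6:52215239-52215538) on 4, Hoxa7 (chr6:52218524-52218823) on 2, and Hoxa10, with 2 starts (chr6:52234890-52235189 and chr6:52240805-52241104), on 4.
Hoxa6: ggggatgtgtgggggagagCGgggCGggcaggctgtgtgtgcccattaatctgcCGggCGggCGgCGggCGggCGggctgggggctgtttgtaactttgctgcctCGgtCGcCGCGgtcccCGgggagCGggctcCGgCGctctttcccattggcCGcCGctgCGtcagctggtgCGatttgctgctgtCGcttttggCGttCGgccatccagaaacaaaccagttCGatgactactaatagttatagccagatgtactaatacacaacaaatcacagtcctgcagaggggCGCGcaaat
Mira: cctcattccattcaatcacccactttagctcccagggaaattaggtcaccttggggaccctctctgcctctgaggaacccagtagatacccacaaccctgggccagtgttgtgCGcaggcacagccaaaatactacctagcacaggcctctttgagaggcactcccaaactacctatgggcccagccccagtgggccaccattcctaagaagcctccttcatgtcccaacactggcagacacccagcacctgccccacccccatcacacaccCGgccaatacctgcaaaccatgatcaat
Hoxa7: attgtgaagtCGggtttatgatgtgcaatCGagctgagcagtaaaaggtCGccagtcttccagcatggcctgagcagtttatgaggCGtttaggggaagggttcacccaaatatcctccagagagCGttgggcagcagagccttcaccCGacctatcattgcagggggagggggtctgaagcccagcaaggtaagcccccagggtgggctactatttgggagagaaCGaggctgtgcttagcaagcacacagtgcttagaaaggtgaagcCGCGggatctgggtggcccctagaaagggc
Hoxa10 downstream start: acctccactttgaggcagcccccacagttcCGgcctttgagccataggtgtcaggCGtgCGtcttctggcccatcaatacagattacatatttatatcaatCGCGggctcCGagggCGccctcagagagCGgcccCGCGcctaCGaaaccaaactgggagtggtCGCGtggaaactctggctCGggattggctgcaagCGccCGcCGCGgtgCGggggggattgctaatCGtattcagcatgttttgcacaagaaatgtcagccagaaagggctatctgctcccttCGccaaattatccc
Hoxa10 upstream start: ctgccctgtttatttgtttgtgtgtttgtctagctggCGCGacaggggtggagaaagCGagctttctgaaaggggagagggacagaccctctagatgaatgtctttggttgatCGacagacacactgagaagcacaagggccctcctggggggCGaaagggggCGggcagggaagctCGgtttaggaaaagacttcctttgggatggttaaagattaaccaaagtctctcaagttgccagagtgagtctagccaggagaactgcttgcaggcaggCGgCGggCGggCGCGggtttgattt

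The window of Hoxa6 held 26 CpG, that of Mira 2, that of Hoxa7 9, and those of Hoxa10 21 at the downstream and 12 at the upstream start. That of Hoxa9, which lies between Hoxa7 and Hoxa10 and is not printed, held 4, and Hoxa9 was detected on 1 array. The promoter table held 24 windows for 22 of the 39 Hox genes, and none for Hoxb3, Hoxb13 or Hoxc9. Their median was 14.5 CpG per window against 7 over all 32851 promoters of the table. The 19 Hox windows of genes detected on 0 arrays had a median of 20 CpG, ranging from 4 to 45, and the 5 windows of genes detected on at least 1 array had a median of 9, ranging from 4 to 21. These ranges overlap, and windows of 1 gene or cluster are not independent, so the values are a description. The homeodomain core TAATTA, searched on both strands, was in 2 of the 24 Hox windows (8.33%), both of Hoxd11, and in 5.29% of all promoters. The PBX and HOX composite TGATTNAT was also in 2 (8.33%), in Hoxa2 and at the downstream start of Hoxd11, and in 3.22% of all promoters.

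Most Hox genes were not detected in these cells. Of the 39 genes, 3 (7.69%) were well above background on all 4 arrays, against 64.6% of the 22911 genes with a symbol. On at least 1 array 8 Hox genes (20.5%) were detected, against 70.4% of all genes. Per array, 4 genes were detected in scrambled replicate 1, 4 in scrambled replicate 2, 5 in MOTS-c replicate 2 and 7 in MOTS-c replicate 3, which was also the array with the largest share of gene spots well above background (65.0%). The part of that share in the count was not tested.

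**Figure D1:**
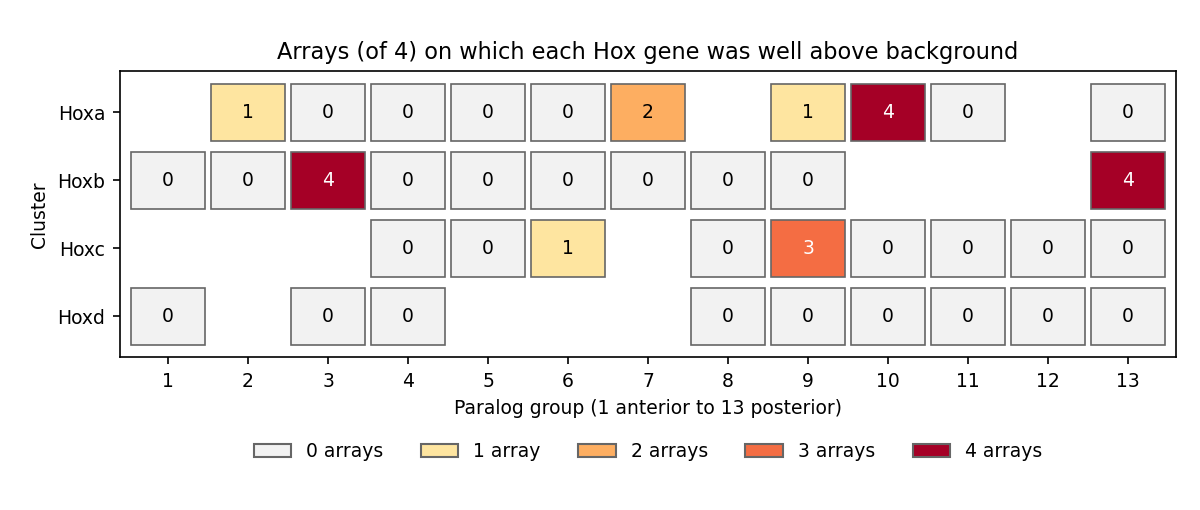
Each square is a Hox gene, placed by cluster (rows) and paralog group (columns), and its number and shade give the arrays, of 4, on which any of its probes was well above background. Hoxb3, Hoxb13 and Hoxa10 reached 4 arrays, and no gene of the Hoxd cluster reached 1.

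The detected genes were scattered over the paralog groups. Of the 8 genes of groups 1 to 3, 1 was detected on all 4 arrays and 2 on at least 1. Of the 15 genes of groups 4 to 8, 0 were detected on all 4 and 2 on at least 1, and of the 16 genes of groups 9 to 13, 2 were detected on all 4 and 4 on at least 1. By cluster, at least 1 array detected 4 of 11 Hoxa genes, 2 of 10 Hoxb genes, 2 of 9 Hoxc genes and 0 of 9 Hoxd genes. In 6 of the 13 paralog groups no gene was detected on any array, groups 4, 5, 8, 11 and 12 among them.

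Hoxb3, an anterior gene of the hindbrain and pharyngeal region, lay far above its local background. Its spot signal was 26.8 and 38.02 times the local background with scrambled peptide and 29.3 and 29.7 times with MOTS-c. The second Hoxb3 probe was also well above background on all 4 arrays but much dimmer, at 3.65 to 5.44 times the local background. The genes on either side, Hoxb4 and Hoxb2, were detected on 0 arrays, with spot signals 0.99 to 1.34 times the local background for Hoxb4.

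Hoxb13, the most posterior gene of its cluster and best known from prostate and hindgut, had a spot signal 2.67 and 2.91 times the local background with scrambled peptide and 3.22 and 3.24 times with MOTS-c. Its neighbor Hoxb9 was detected on 0 arrays by either of its probes. Hoxa10, a posterior gene of the uterus and limb, lay close to background, at 1.41 and 1.97 times with scrambled peptide and 1.42 and 1.30 times with MOTS-c. Its other probe was detected on 0 arrays.

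The remaining detected genes were near the edge of detection and were not detected on every array. Hoxc9, which patterns the thoracic spinal cord, missed the flag in scrambled replicate 2, although its spot signal there, relative to the local background, was above those of the other arrays (1.26 to 1.52 times). Hoxa7, a trunk gene, carried the flag on both MOTS-c arrays and on neither scrambled array. Hoxa9 and Hoxc6 were detected in MOTS-c replicate 3 alone, with log2 signals of 4.75 and 4.46 there and at most 3.94 on the other arrays. Hoxa2, the most anterior of these genes in the hindbrain, was detected in scrambled replicate 2 alone, with a log2 signal of 4.71 there and 1.85 to 2.66 on the other arrays.

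The other 31 genes were detected on 0 arrays. In the Hoxa cluster they included Hoxa3, Hoxa4, Hoxa5, Hoxa6, Hoxa11 and Hoxa13, and in the Hoxb cluster Hoxb1, Hoxb2, Hoxb4, Hoxb5, Hoxb6, Hoxb7, Hoxb8 and Hoxb9. In the Hoxc cluster they were Hoxc4, Hoxc5, Hoxc8, Hoxc10, Hoxc11, Hoxc12 and Hoxc13, and in the Hoxd cluster all 9 members, Hoxd1, Hoxd3, Hoxd4, Hoxd8, Hoxd9, Hoxd10, Hoxd11, Hoxd12 and Hoxd13. Their spot signals lay between 0.721 and 1.58 times the local background. A milder flag, a spot positive and significant against background, was set on at least 1 array for 22 of these 31 genes and on none for 9. Their RNA was not detectable with these probes, which does not show that it was absent.

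**Figure D2:**
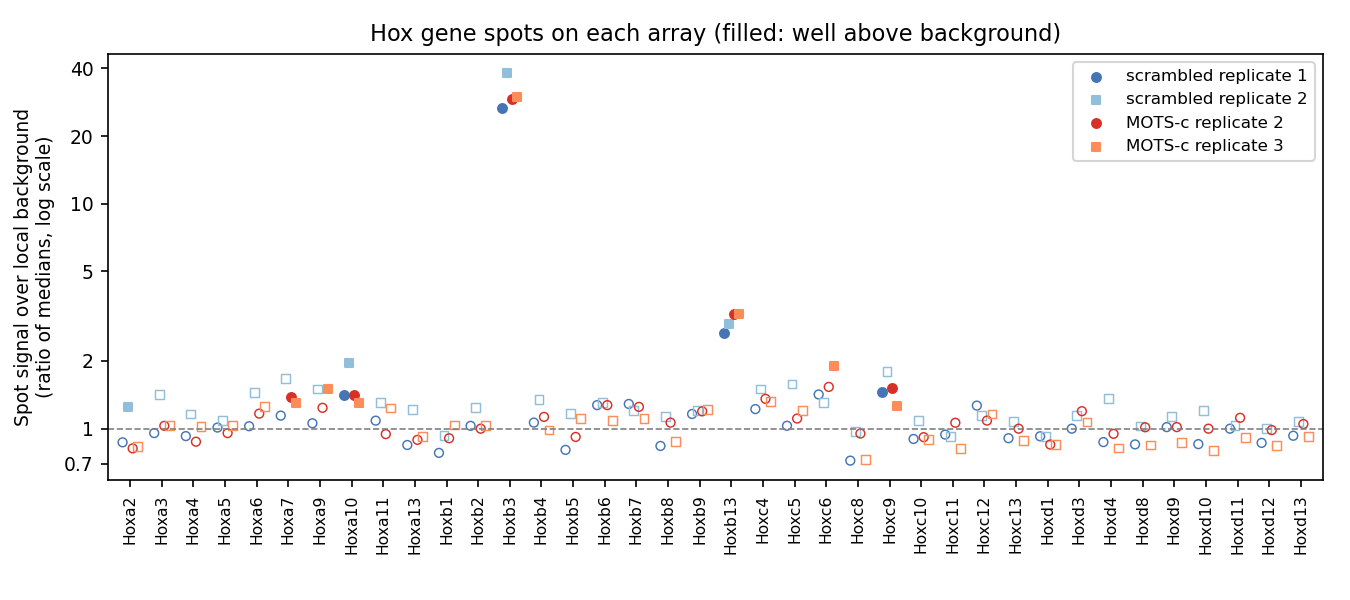
Median spot signal over median local background (log scale, dashed line at 1) for the brightest probe of Hox genes on the 4 arrays, with filled symbols where the spot was well above background. Hoxb3 lies between 26.8 and 38.02, Hoxb13 at 2.67 to 3.24, and the genes detected on 0 arrays between 0.721 and 1.58.

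Some noncoding RNAs of the clusters were detected beside coding genes that were not. Of 18 such RNAs listed, 8 had a probe matched by accession, and 3 of the 8 were well above background on all 4 arrays. The log2 of the deposited signal of Hoxb5os, antisense in the Hoxb5 to Hoxb6 region, was 8.26, 8.65, 8.68 and 8.56, with the scrambled arrays (replicates 1 and 2) before the MOTS-c arrays (replicates 2 and 3) here and below. That of Mira, between Hoxa6 and Hoxa7 and known as an activator of that region, was 6.34, 6.37, 6.55 and 6.69. That of Haglr, a long noncoding RNA beside Hoxd1, was 6.56, 6.58, 6.78 and 7.12, although no coding gene of the Hoxd cluster was detected. Hottip, at the posterior end of the Hoxa cluster, was detected on 3 arrays, Hoxaas3 on 2, Hoxa11os and Halr1 on 1 each, and Hoxd3os1 on 0. Of 8 protein-coding neighbors of the clusters with a probe, 7 were detected on all 4 arrays, Skap1, Skap2, Mtx2 and Smug1 among them, and Evx1, a homeobox gene at the end of the Hoxa cluster, on 2.

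**Figure D3:**
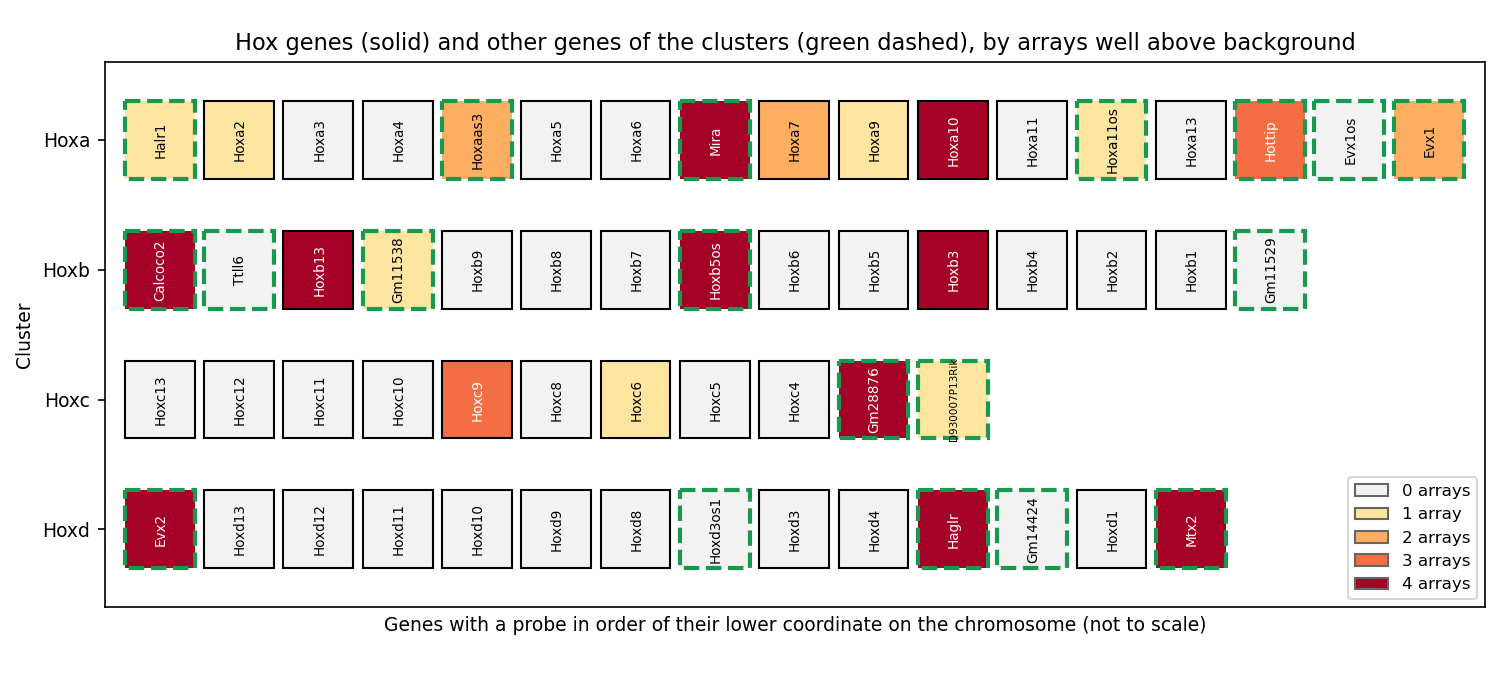
Genes with a probe in and beside the 4 Hox clusters in the order of their lower coordinate on the chromosome (not to scale), with solid frames for Hox genes, dashed green frames for other genes, and the shade for the arrays, of 4, well above background. Mira, Hoxb5os and Haglr reached 4 arrays between Hox genes that reached 0 to 2.

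To ask whether MOTS-c changed the Hox genes, the 5 genes detected on 2 or more arrays were followed in the limma fit over 15469 genes. None of the 5 passed the call rule, which asked for an unadjusted p under 0.05 and for a difference of 1.5-fold or more. The background was 0.996% of genes called higher and 3.01% called lower with MOTS-c. At an adjusted p under 0.05 limma called 0 Hox genes and 0% of all genes, while 0 Hox genes and 2755 of 35087 probes passed an unadjusted p under 0.05. The methods' t-test called 0 Hox genes and 1 of the 15469 genes at the adjusted threshold. With 2 arrays a group, an exact two-sided permutation test cannot go below p = 0.333.

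The normalized log2 signal of Hoxb3 was 9.82 and 10.20 with scrambled peptide and 9.85 and 9.92 with MOTS-c. Both MOTS-c values lay within the scrambled range, and the group means were 10.01 ± 0.27 and 9.89 ± 0.05 (SD, n = 2 each). The log2 difference, MOTS-c minus scrambled, was -0.12 (SE 0.17, limma adjusted p = 0.900), with a 95% interval from -0.58 to 0.33. Its sign turned without scrambled replicate 2 (0.069), and it was -0.31 without scrambled replicate 1. On the second probe the difference was -0.04 (SE 0.14, limma adjusted p = 0.969).

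Hoxb13 had normalized log2 signals of 5.93 and 6.17 with scrambled peptide and 6.29 and 6.33 with MOTS-c. Both MOTS-c arrays were above both scrambled arrays. The log2 difference was 0.26 (SE 0.14, limma adjusted p = 0.731), with a 95% interval from -0.11 to 0.63.

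Hoxa10 had normalized log2 signals of 4.33 and 4.82 with scrambled peptide and 4.03 and 4.10 with MOTS-c. Both MOTS-c arrays were below both scrambled arrays, and the scrambled arrays lay further apart than the MOTS-c arrays (SD 0.35 against 0.05). The log2 difference was -0.51 (SE 0.20, limma unadjusted p = 0.0555, adjusted p = 0.652), with a 95% interval from -1.04 to 0.02. Without scrambled replicate 1, which leaves scrambled replicate 2 as the only control array, it was -0.77. Without scrambled replicate 2 it was -0.26. With normexp background correction it was -0.13 (limma unadjusted p = 0.285), and the methods' t-test gave an unadjusted p of 0.177.

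Hoxc9 had normalized log2 signals of 4.71 and 4.15 with scrambled peptide and 4.96 and 3.86 with MOTS-c. The groups overlapped, and both the highest and the lowest value were MOTS-c arrays. The log2 difference was -0.02 (SE 0.42, limma adjusted p = 0.996), with a 95% interval from -1.13 to 1.09. Its sign turned without scrambled replicate 1 (0.26) and without MOTS-c replicate 3 (0.53).

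Hoxa7 had normalized log2 signals of 3.53 and 3.87 on the scrambled arrays, neither well above background, and of 4.17 and 3.87 with MOTS-c. The scrambled arrays give a bound only, and the MOTS-c mean of 4.02 was below the bound of 4.05, so no fold is given (limma adjusted p = 0.754). Hoxa7 entered the fit through its MOTS-c arrays alone.

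**Figure D4:**
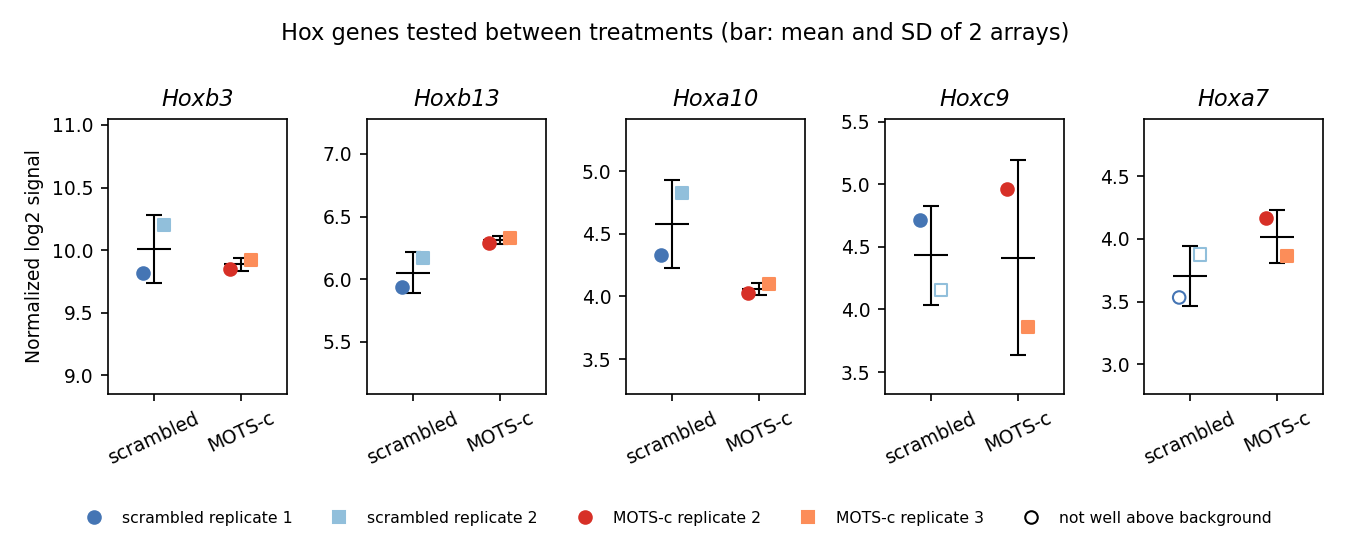
Normalized log2 signal of the 5 Hox genes that were tested, each array as a point (open where not well above background) with the mean and SD of the 2 arrays of a group, every panel spanning the same range of log2 units. Hoxb13 is higher and Hoxa10 lower on both MOTS-c arrays, and the groups of the other 3 genes overlap.

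Among the 5 genes, 1 did not overlap between groups with MOTS-c higher and 1 with MOTS-c lower, where 19.8% and 22.7% of all genes did. The median log2 difference of the 5 was -0.02, or -0.04 with Hoxa7 at its bound, beside -0.0018 over all genes tested. The other members were left out by the filter on dim probes. With no filter limma called 0 of the 39 genes in either direction, beside 267 higher and 512 lower of 22911 genes. As 31 of the 39 were well above background on 0 arrays, this count says little about them. The precision over this span of levels was limited: over the 6817 genes between the dimmest and brightest tested Hox gene, the median SE of the log2 difference was 0.17, and 10.4% of them differed by at least 1.5-fold, against 0.14 and 5.65% over all genes tested. In limma with a trend the SE was 0.32 for Hoxa10 (unadjusted p = 0.153) and 0.22 for Hoxb13, against 0.20 and 0.14 in the main fit. For Hoxc9 and Hoxb3 it was 0.43 and 0.17, against 0.42 and 0.17.

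**Figure D5:**
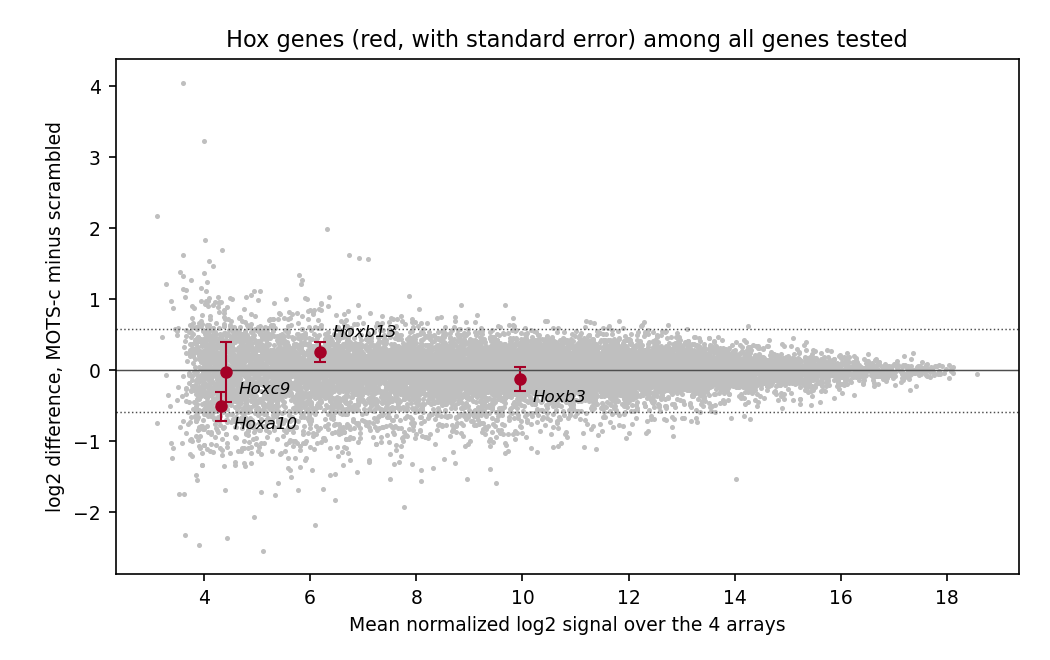
Log2 difference (MOTS-c minus scrambled) against mean normalized log2 signal for the 15469 genes tested (grey, brightest probe), with Hoxb3, Hoxb13, Hoxa10 and Hoxc9 in red with their standard error and dotted lines at 1.5-fold. All 4 lie between the dotted lines, from -0.51 for Hoxa10 to 0.26 for Hoxb13, and Hoxa7 is left out because its scrambled arrays were not well above background.

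The cofactors and chromatin regulators of the Hox genes were detected throughout, and none met the call rule. Unless called normalized, log2 signals here and below are those before normalization, while log2 differences are between normalized signals. All 9 TALE cofactors were well above background on all 4 arrays. The log2 signals of Pbx3, a partner of HOX proteins on DNA, were 12.85 to 13.13, those of Meis3 11.02 to 11.21, and those of Pbx2 10.6 to 10.9. Of the 9, 0 were called higher and 0 lower (median log2 difference -0.10). All 27 Polycomb genes were detected on all 4 arrays, with Rbbp4, Rbbp7, Phc2 and Cbx6 the brightest spots, and 0 were called either way (median 0.03). The catalytic subunit Ezh2 differed by 0.23 (SE 0.14, limma adjusted p = 0.762) and its core partner Eed by 0.18 (SE 0.13, limma adjusted p = 0.792). All 13 Trithorax and MLL genes with a probe were detected on all 4 arrays, with Dpy30, Ash2l, Psip1 and Wdr5 the brightest, and 0 were called (median 0.05).

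Genes of retinoic acid signaling held 3 of the 7 related genes that met the call rule. Of 17 with a probe, 13 were detected on all 4 arrays, 14 were tested, 0 were called higher and 3 lower (median -0.12), where 3.01% of all genes were called lower. Dhrs3, which turns retinaldehyde back to retinol, had log2 signals of 9.13, 8.53, 7.76 and 7.98, a log2 difference of -1.05 (SE 0.19, limma adjusted p = 0.474). Rxrg, a retinoid X receptor, had 8.20, 8.29, 7.51 and 7.31, a difference of -0.92 (SE 0.18, limma adjusted p = 0.486). Rarb, a retinoic acid receptor that is itself a classic target, had 8.26, 7.75, 7.63 and 7.15, a difference of -0.70 (SE 0.26, limma adjusted p = 0.627), and did not meet the call rule without scrambled replicate 1, without scrambled replicate 2, without MOTS-c replicate 3 or with normexp background correction. All 3 were lower on both MOTS-c arrays, and none passed the adjusted threshold. After normalization Rara, Rarg and Rxra were also lower on both MOTS-c arrays, at log2 differences of -0.20, -0.26 and -0.43. Cyp26b1 (0.37), Rdh10 (0.25) and Aldh1a1 were higher on both, Aldh1a1 from log2 signals near background (3.86, 3.63, 4.22 and 4.55). None of these was called. Over all genes, 22.7% were lower and 19.8% higher on both. The brightest members were the receptors Rxrb, Rxra and Rarg and the synthesis enzyme Rdh10. Of the enzymes that make retinoic acid, Aldh1a2 and Aldh1a3 were detected on 0 arrays and Aldh1a1 on 2.

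Among 8 regulators of axial identity, 5 were detected on all 4 arrays, 1 was called higher and 1 lower (median of the 6 tested 0.14). Egr2, the hindbrain regulator Krox20, had 7.36, 7.66, 6.87 and 6.83, a difference of -0.74 (SE 0.20, limma adjusted p = 0.539), and missed the call rule without scrambled replicate 2, without MOTS-c replicate 3 and with normexp correction. Cdx2, an activator of posterior Hox genes and a gene of the intestine, was bright on all 4 arrays at 10.9, 11.1, 10.9 and 10.8, a difference of -0.29 (SE 0.17, limma adjusted p = 0.745). Its relatives Cdx1 and Cdx4 were detected on 2 and 0 arrays, Gbx2 and Gdf11 on 4, and Otx2, the forebrain regulator, on 0.

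Most homeobox genes of the islet lineage outside the clusters were detected. Of 9, 8 were well above background on all 4 arrays, with Isl1, Nkx6-1, Pax6 and Pdx1 the brightest. Pax4, a factor of beta cell fate, had log2 signals of 10.6, 9.94, 8.77 and 8.74, and was the 1 gene called, with a difference of -1.59 (SE 0.20, limma adjusted p = 0.474). Of the 8 tested, 0 were called higher (median -0.16).

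Of the 5 noncoding RNAs tested, 0 were called higher and 1 lower (median 0.18). Haglr differed by 0.29 (SE 0.15, limma adjusted p = 0.708), Mira by 0.18 (SE 0.13, limma adjusted p = 0.788), Hoxb5os by 0.09 (SE 0.23, limma adjusted p = 0.953) and Hottip by 0.26 (SE 0.18, limma adjusted p = 0.787). Hoxaas3 met the call rule at -0.71 (SE 0.23, limma adjusted p = 0.566), from normalized log2 signals of 3.96, 3.97, 2.96 and 3.54. Before normalization they were 3.97, 3.86, 2.95 and 3.78, well above background on 2 arrays. It met the rule neither under the 75th percentile shift nor under normexp correction, nor without scrambled replicate 1, scrambled replicate 2 or MOTS-c replicate 2. Of the 8 cluster neighbors, 0 were called in either direction (median 0.07). Across all 8 related lists 0 genes passed the adjusted threshold in limma.

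Fibroblasts and other stromal cells are known to keep Hox expression in the adult, so markers of the cell types an islet preparation can hold are given beside the Hox values. In bulk samples fewer cells of a type and less RNA per cell cannot be told apart. Of 11 mesenchymal markers 4 were detected on all 4 arrays (Acta2, Col1a2, Thy1 and Pdgfra) and 7 on 0, and their summed signal was 5876 and 4984 on the scrambled and 5168 and 5051 on the MOTS-c arrays. Pdgfra met the call rule at -1.05 (SE 0.34, limma adjusted p = 0.567). Of 8 endothelial markers 3 were detected on all 4 arrays (Plvap, Esam and Pecam1) with summed signals of 2017 and 2268 against 2356 and 2003, and of 8 immune markers 5 (Itgam, Csf1r, Cd68, Cd3e and C1qa, called at -0.67) with 11556 and 11794 against 10393 and 12582. These 3 sums overlapped between the groups. Sums here and below are of signals before normalization and weigh the brightest members most. Acta2 (log2 12.2 to 12.4) dominated the mesenchymal sum, as Tubb3 (13.1 to 13.3) did that of the nerve and Schwann cell markers below. After normalization, the log2 differences of the 4 mesenchymal markers tested ran from -1.05 to -0.10 (median -0.22), and 0 passed the adjusted threshold.

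Of 6 nerve and Schwann cell markers 2 were detected on all 4 arrays (Tubb3 among them), with sums of 10356 and 9638 against 10053 and 9223, and of 6 duct markers 2 (Spp1 and Krt7), with 187 and 252 against 234 and 189. Acinar sums were 3644 and 3662 on the scrambled and 2574 and 2092 on the MOTS-c arrays, with 2 of 6 markers detected on all 4 arrays (Cela1 and Cel). Cela1, an elastase called at -0.76, made up 95.5% to 97.7% of these sums and did not overlap between the groups, while Cel, a lipase, did overlap (log2 signals of 6.07, 6.27, 6.11 and 6.07). The summed signals of the beta cell markers and of the 6 other endocrine markers, 5 of them detected on all 4 arrays, overlapped between the groups. Slc2a2 met the call rule at -1.33 (SE 0.14, limma adjusted p = 0.474) and Irx2, a gene of alpha cells, at 0.68 (SE 0.16, limma adjusted p = 0.519). The part of any of these cell types in the Hox values was not tested.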

How the data were processed

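Total RNA of 4 islet cell samples was amplified, labeled with Cy3 and hybridized to Agilent SurePrint mouse arrays, and the authors deposited the Feature Extraction output of each array. Its processed signal is an intensity, background-subtracted and detrended within each array by the scanner software. A further deposited table gives these intensities to 3 significant digits. Probes carry RefSeq accessions, matched to symbols through RefSeq, and 32994 of 56605 gene probes had a symbol.

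Control spots and outlier spots (96 to 131 per array) were left out and spots of a probe averaged. Log2 signals were quantile normalized, probes detected (well above background) on 2 or more of 4 arrays were kept (35087 probes), and MOTS-c was tested against scrambled peptide in limma 3.58.1 (R 4.3.3) with Benjamini-Hochberg adjustment over all probes. A gene was read on its brightest probe, and a call needed an unadjusted p under 0.05 and a 1.5-fold difference. The fit was tested on simulated data. For a group with no array well above background, a bound was taken from the lowest signal well above background on each array.

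The Hox genes were named, as well as up to 4 brightest members of each related or marker list and every member called; a few genes of these lists are counted but not reported by name here. The members and lists were chosen with earlier results of these data known. The precision is limited by the number of arrays, 2 a group. Alternatives were a 75th percentile shift, normexp on the median signals with an offset of 50, the deposited table, no filter or a strict filter on dim probes, a trended limma, the methods' t-test, the mean over a gene's probes, and leaving out each array. All arrays lay on 1 slide, so no slide block was fitted.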

Additional observations from a re-analysis of the deposited data

How the results depend on the processing

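No paired analysis was possible because the labels do not tie an array to an animal. The groups share only replicate number 2, and the labels do not say that a shared number marks a pair. Under every alternative that kept all 4 arrays, 0 Hox genes passed the adjusted threshold and 0 met the call rule. In the simulation of the main fit, 0% of log2 changes of 1 passed the adjusted threshold, so these nulls do not exclude such a change. A fit with 1 array left out has a single array in 1 group, so the spread of that group is not measured. Hox genes whose groups did not overlap numbered 2 of 5 (40% against 42.5% of all genes), 9 of 39 with no filter on dim probes (23.1% against 41.2%) and 3 to 4 of 5 with 1 array left out, where 66.3% to 77.5% of all genes did not overlap. The count of 9 of 39 was read largely on signals near background. The Hox genes detected on all arrays used numbered 3, 3 to 4 with 1 array left out, and 9 by the milder flag of a positive and significant signal. With 1 array left out the log2 difference of Hoxb3 ranged from -0.31 (without scrambled replicate 1) to 0.069 (without scrambled replicate 2), and that of Hoxc9 from -0.59 (without MOTS-c replicate 2) to 0.53 (without MOTS-c replicate 3), with 0.26 without scrambled replicate 1. The cause of these turns was not tested. Over all alternatives run, Hoxb13 ranged from 0.15 to 0.38 and Hoxa10 from -0.77 (without scrambled replicate 1) to -0.13 (normexp correction), and with 1 array left out Hoxa10 reached -0.26. Of the related genes, 7 met the call rule, 3 with normexp correction and 6 to 10 with 1 array left out. Over all genes, 154 were called higher and 465 lower. The counts were 44 and 242 with normexp correction, 58 and 177 by the methods' t-test, 481 and 965 without MOTS-c replicate 2, 267 and 512 with no filter, and 238 and 436 without scrambled replicate 1. Signals of 31 of the 39 Hox genes were too close to background on all 4 arrays to be compared.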
